A study of Mus musculus with 8 samples.

Results

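The 10 immediate early and Krüppel-like factor genes, Klf2, Klf4, Klf6, Fos, Jun, Junb, Egr1, Ier2, Ier3 and Myc, were followed in RAW264.7 cells, an established mouse line with macrophage character that arose in a tumour induced by a leukaemia virus. The genes were chosen by name, and the choice was made with their values in the comparison below in view, so those values are given as a description. All 10 were found among the 55335 genes of the deposited table, and 7 of them were abundant enough to enter the test. The cells had been cultured for 3 days with hydroxyapatite scaffolds doped with magnesium ions (HA/Mg, 4 libraries) or with the Trio-Active bone scaffold (TABS, 4 libraries), and both groups carry the replicate numbers 5 to 8. RAW264.7 is a single transformed line, no culture without a scaffold was analysed here, and the labels do not say what TABS is made of. Nothing states that the 4 libraries of a group were grown apart, and the p-values therefore cover the spread among the sequenced libraries, possibly a technical one. The groups follow the sample titles. The library names mark TABS with H and HA/Mg with L, and if the titles were exchanged every direction below would turn round.

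Immediate early genes are transcribed soon after a stimulus reaches a cell, from factors that are already present, and most of their mRNAs are short-lived. Fos, Jun and Junb encode subunits of AP-1, a dimeric factor in which a FOS protein pairs with a JUN protein or JUN proteins pair with each other. Egr1 encodes a zinc-finger factor, Ier2 a nuclear regulator and Ier3 a stress-inducible protein that modulates survival and signalling, while Myc encodes the factor that drives growth and ribosome production. Klf2, Klf4 and Klf6 encode Krüppel-like zinc-finger factors that bind GC-rich and CACCC sequences, and in macrophages KLF2 is known as a restraint on inflammatory transcription.

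Promoters of 7 members (Klf2, Klf4, Klf6, Fos, Jun, Junb and Ier3) were matched in RefSeq, on GRCm38.p6. The sequences below are the 120 bases before the annotated gene of Klf2 and Jun, which had the lowest and the highest change of log2(FPKM + 1) among the 7 tested members, and of Fos, the classical immediate early gene. Each is read 5′ to 3′ on the strand of the gene, and capitals mark a match to the MEF2 site in Klf2 and Jun and to the cyclic AMP response half-site TGACG in Fos. The Klf2 stretch is chr8:72318913-72319032 on the plus strand, the Jun stretch chr4:95052223-95052342 on the minus strand and the Fos stretch chr12:85473770-85473889 on the plus strand. The RefSeq start of Klf2 lies 29 bases inside the gene as GENCODE draws it, and those bases are left out.
Klf2: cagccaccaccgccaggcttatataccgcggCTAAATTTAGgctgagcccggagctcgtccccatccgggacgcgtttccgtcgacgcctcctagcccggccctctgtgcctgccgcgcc
Jun: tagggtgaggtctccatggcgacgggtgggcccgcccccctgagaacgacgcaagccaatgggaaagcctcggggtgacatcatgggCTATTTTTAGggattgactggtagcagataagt
Fos: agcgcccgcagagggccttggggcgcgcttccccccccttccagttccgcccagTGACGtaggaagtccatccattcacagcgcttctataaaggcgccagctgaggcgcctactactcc

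The 250 bases before each start were searched on both strands. A MEF2 site was found in Klf2 and Jun only among the 7 member promoters, and in 2.92% of all 32851 promoters. TGACG was found in Klf2, Klf4, Junb and Fos (17.8% of all promoters), the E-box CACGTG in Klf4 and Klf6 (6.02%), and an NF-kB site in Fos and Ier3 (9.55%). The GC box GGGCGG was found in 6 of the 7, all but Junb (32.7% of all promoters), the CACCC box CACCC in Klf2, Jun and Junb (52.0%), the CCAAT box CCAAT in Klf6, Jun, Junb and Ier3 (33.8%), and the TATA box TATAAA in Fos (12.4%). The NF-kB match of Ier3 overlaps its GC box. Neither a CArG box (1.47% of all promoters) nor the AP-1 letters TGANTCA (6.75%) occurred in these windows of the 7 members. Bases farther upstream, the promoters of Ier2, Egr1 and Myc, and other spellings of these sites were not searched, so their absence from the genes does not follow. A match describes the letters and is not evidence of binding.

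RNA abundance was given as FPKM, fragments per kilobase of transcript scaled to the library's total, so levels can be compared between genes. The spacing of low values implied 19800000 to 23600000 fragments per library, although only 34.0% to 36.8% of low values fell within 0.05 fragment of a whole number, so that these depths and all fragment numbers below are estimates. Between 9908 and 10280 genes reached 1 FPKM in a library. Of the 10161 genes tested, 18.1% passed the threshold of limma, an adjusted p under 0.05. Those lower with TABS were 13.1% of all (1327 genes) and those higher were 5.07% (515 genes). At an unadjusted p under 0.05 in limma, 2471 of the 10161 genes were lower and 1232 higher, and counts of lists at that level stand beside these. The gene lists below were chosen with earlier results of these data known. Their counts and shares are therefore descriptions, and no enrichment is read from them. The share of passing genes that were higher was 28.0%, against 13.9% with libraries set to equal sums (251 higher, 1549 lower), 45.5% with median-of-ratios scaling (862 higher, 1033 lower), 40.3% with quantile normalization (806 higher, 1192 lower) and 40.6% once trends with transcript length and GC content had been taken out (263 higher, 384 lower). The 4 libraries of a group did not overlap with those of the other for 23.1% of tested genes, lower with TABS for 15% and higher for 8.05%. A log2 change is the TABS mean less the HA/Mg mean of log2(FPKM + 1), a scale that understates the change of low genes, and ± after them is a standard error.

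Among the 7 tested members 2 passed the threshold, Klf2 and Ier2, both lower with TABS, and none passed in the other direction. This count stands beside the 13.1% of all tested genes that were lower, and nothing is read from it, because the members were chosen with this comparison in view. Jun had the highest log2 change of the 7 and did not pass. In bulk RNA, fewer cells expressing a gene and less RNA per cell cannot be told apart. Klf4, Egr1 and Myc were below 1 FPKM in at least 5 libraries and were not tested. The plot of all 10 members by library shows these levels.

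**Figure D1:**
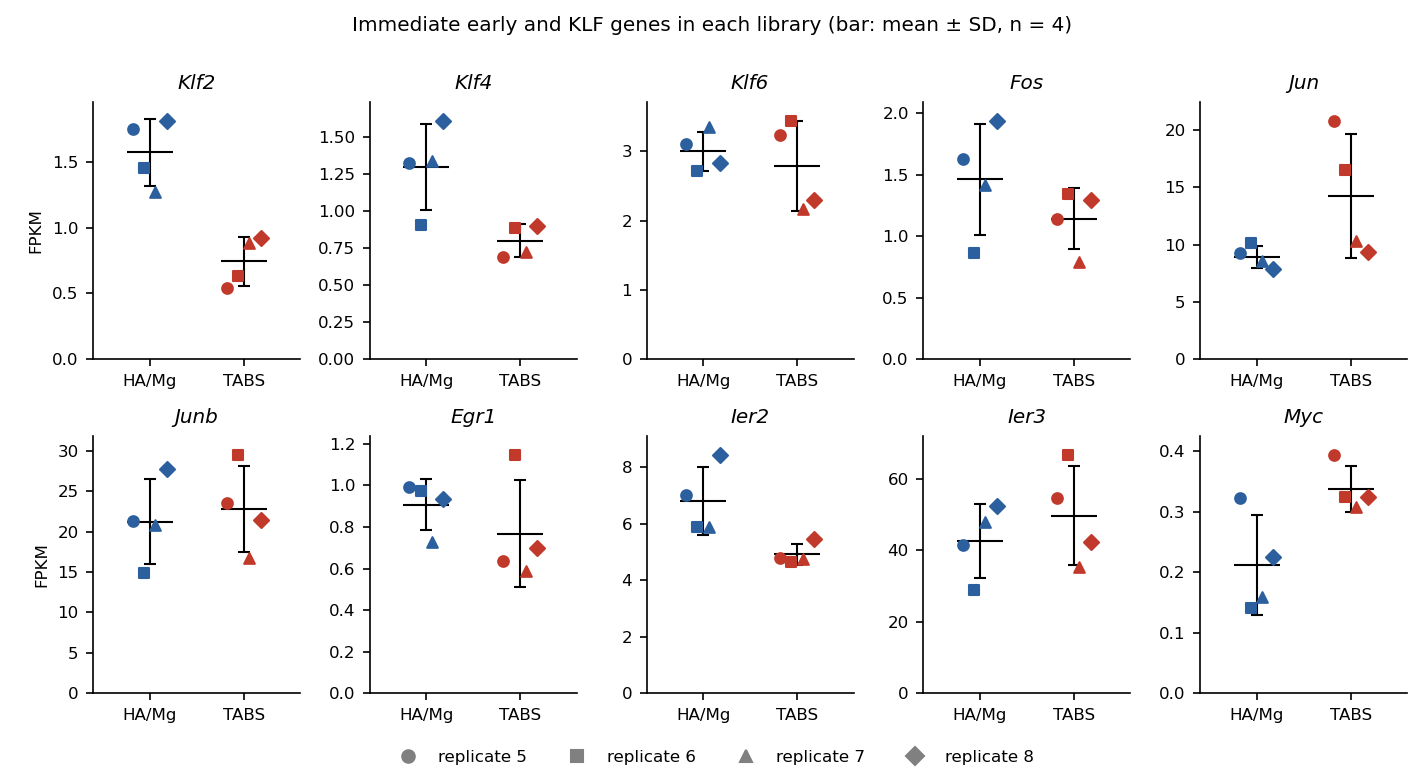
FPKM of the 10 genes in each library, with HA/Mg in blue and TABS in red, one marker shape for each replicate number, and a bar for the mean ± SD of 4 libraries; every axis starts at 0. Klf2, Klf4 and Ier2 lie lower in all TABS libraries than in any HA/Mg library, while Jun is high in TABS replicates 5 and 6.

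Klf2 (ENSMUSG00000055148, chromosome 8, 72319033 to 72321656, plus strand) stood at 0.541, 0.635, 0.882 and 0.921 FPKM in TABS replicates 5 to 8 and at 1.75, 1.46, 1.27 and 1.81 FPKM in HA/Mg replicates 5 to 8. Every TABS library was below every HA/Mg library, and TABS replicates 5 and 6 were the lowest. The mean was 0.745 ± 0.186 FPKM with TABS and 1.57 ± 0.254 FPKM with HA/Mg (SD, n = 4 each), or 2.11-fold lower with TABS. The log2 change was -0.56 ± 0.10. Klf2 reached 1 FPKM in all HA/Mg libraries and in no TABS library, so it entered the test only through the group in which it was high. The implied number of fragments was 22 to 79 per library, for a counting error of 21.3% in the lowest and 11.3% in the highest. With each library left out in turn Klf2 still passed, at log2 changes of -0.62 to -0.50. Those fits kept the same gene filter and the same choice of genes, so this passing is a description and not independent support. The log2 change of Klf2 was -0.67 after the length and GC trends were removed and -0.998 with a pseudocount of 0.1 FPKM in place of 1.

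Klf4 (ENSMUSG00000003032, chromosome 4, 55527143 to 55532466, minus strand), a factor of macrophage polarization and one of the reprogramming factors of stem cells, lay at 0.692, 0.887, 0.725 and 0.902 FPKM with TABS and at 1.32, 0.907, 1.34 and 1.61 FPKM with HA/Mg. The groups did not overlap, but HA/Mg replicate 6 and TABS replicate 8 were separated only in the third decimal. The means were 0.801 ± 0.109 and 1.29 ± 0.291 FPKM, 1.62-fold lower with TABS. Klf6 (ENSMUSG00000000078, chromosome 13, 5861482 to 5870394, plus strand), which is linked to macrophage activation and injury responses, lay at 3.23, 3.44, 2.16 and 2.29 FPKM with TABS and at 3.10, 2.71, 3.35 and 2.83 FPKM with HA/Mg. The TABS values fell into a high pair (replicates 5 and 6) and a low pair (replicates 7 and 8) on either side of most HA/Mg values. Its log2 change was -0.09 ± 0.12 (95% interval -0.36 to 0.17), and it was 0.10 after the length and GC trends were removed, so its direction was not settled.

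Klf2 and Klf4 were low members of a family led by other genes. Klf16, a KLF repressor, had the highest median of the 17 KLF genes, 10.6 FPKM over the 8 libraries, followed by Klf13 at 5.31 and Klf9 at 4.95 FPKM, whose library ranges overlapped. Klf6 was sixth at 2.97 FPKM, overlapping with Klf10 above it (3.09 FPKM) and not with Klf11 below it (1.39 FPKM). Klf2 followed at 1.10 and Klf4 at 0.905 FPKM, and their ranges overlapped. Klf5, Klf12 and Klf14 were listed at 0 in every library.

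Of the 9 other KLF and SP genes tested, 1 fell (11.1%, no more than the 13.1% of all tested genes), 0 rose and 8 did not pass. In limma 2 were lower and 0 higher at an unadjusted p under 0.05, beside 2471 lower and 1232 higher of all 10161. The median log2 change was -0.10 against -0.04 over all tested genes. The gene that fell was Klf10, a factor induced by TGF-beta. It stood at 2.66, 2.63, 2.69 and 2.84 FPKM with TABS and 4.51, 3.34, 4.04 and 3.57 FPKM with HA/Mg, without overlap. The log2 change was -0.39 ± 0.08 (limma adjusted p = 0.0168, and 0.0426 after the length and GC trends were removed). Leaving out HA/Mg replicate 7 ended the call, at an adjusted p of 0.0572.

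**Figure D2:**
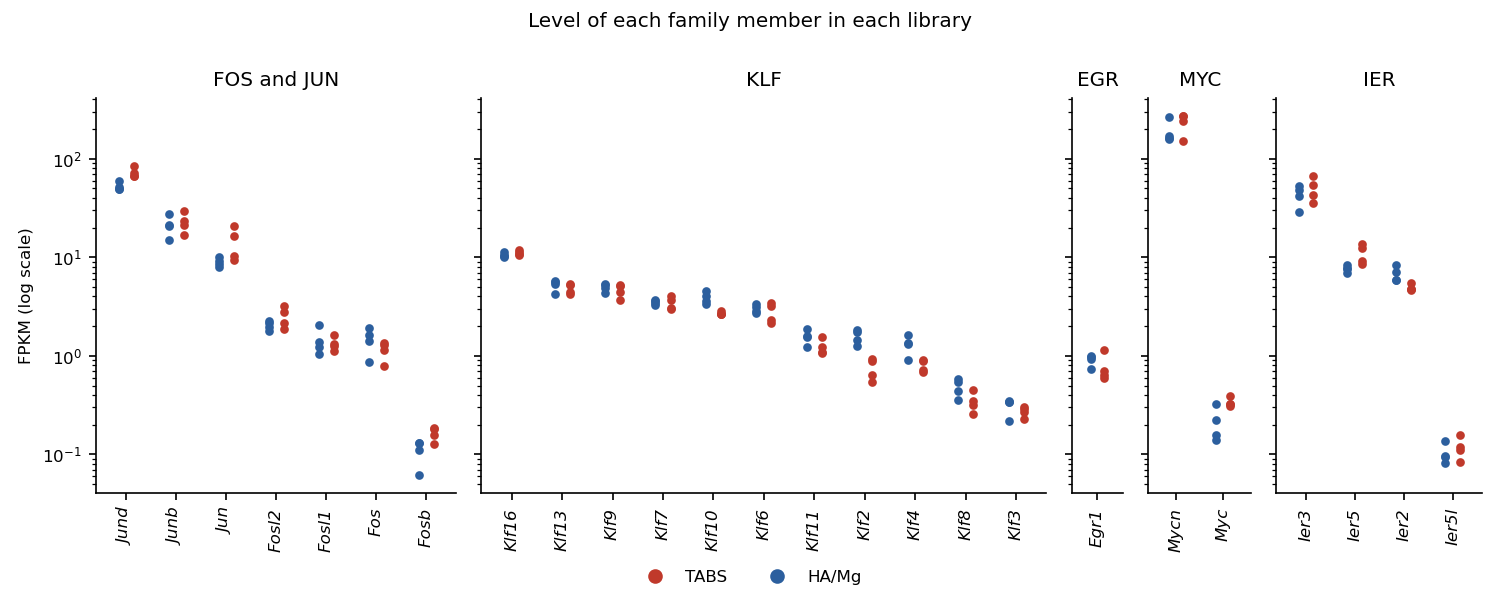
FPKM on a log axis for each gene of 5 families in each HA/Mg (blue) and TABS (red) library, ordered by mean level; genes at 0 in any library are left out. Jund leads the FOS and JUN genes, Klf16 the KLF genes, and Mycn lies far above Myc.

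Jun (ENSMUSG00000052684, chromosome 4, 95049034 to 95052222, minus strand) lay at 20.8, 16.5, 10.3 and 9.32 FPKM in TABS replicates 5 to 8 and at 9.23, 10.2, 8.59 and 7.87 FPKM with HA/Mg. TABS replicates 5 and 6 were above all other libraries, while TABS replicate 8 lay within the HA/Mg range. The mean was 14.2 ± 5.43 FPKM with TABS and 8.96 ± 0.970 FPKM with HA/Mg, or 1.59-fold higher, with a log2 change of 0.55 ± 0.22 (95% interval 0.06 to 1.04). Leaving out TABS replicate 5 brought the log2 change to 0.35 and leaving out TABS replicate 8 brought it to 0.71, and Jun did not pass in either case. It passed only with array weights (log2 change 0.60) among the settings tried. The antisense gene Junos shares exons with Jun and was low, with a mean of 0.160 FPKM.

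Junb (ENSMUSG00000052837, chromosome 8, 84974484 to 84978718, minus strand), which often opposes JUN in AP-1, lay at 23.5, 29.5, 16.7 and 21.4 FPKM with TABS and at 21.3, 14.9, 20.8 and 27.8 FPKM with HA/Mg. The groups overlapped over most of their range, and the log2 change was 0.10 ± 0.19 (95% interval -0.33 to 0.54). It turned to -0.05 without HA/Mg replicate 6, to -0.03 without TABS replicate 6 and to -0.0027 after the length and GC trends were removed. The exons of Junb overlap those of Prdx2 on the opposite strand, which averaged 77.2 FPKM, and no use of strand in counting is given in the sources used here, so its level is uncertain.

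Fos (ENSMUSG00000021250, chromosome 12, 85473890 to 85477273, plus strand) was low, at 1.14, 1.34, 0.793 and 1.29 FPKM with TABS and 1.62, 0.865, 1.42 and 1.94 FPKM with HA/Mg. The lowest HA/Mg library, replicate 6, was below all TABS libraries but replicate 7. The log2 change was -0.19 ± 0.14 (95% interval -0.51 to 0.13), on 38 to 96 implied fragments per library. It was -0.30 with a pseudocount of 0.1 FPKM, -0.10 without HA/Mg replicate 8 and -0.32 without HA/Mg replicate 6, and never passed. Among the FOS and JUN genes, the JUN genes were the abundant ones in all 8 libraries: Jund had a median of 62.8 FPKM, Junb 21.3 and Jun 9.74, against 2.14 for Fosl2, 1.28 for Fosl1, 1.32 for Fos and 0.131 for Fosb. The ranges of Junb and Jun overlapped, as did those of Fosl2, Fosl1 and Fos.

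Of 12 other AP-1 family genes tested, 4 rose (33.3%, beside 5.07% of all tested genes), 0 fell and 8 did not pass. This list, like the others, was chosen with earlier results known, so the share is a description only. At an unadjusted p under 0.05 in limma 4 were higher and 0 lower. The median log2 change was 0.09 against -0.04 over all tested genes. Atf3, a stress-induced member, rose from 43.1, 48.9, 43.9 and 36.0 FPKM with HA/Mg to 108, 79.1, 67.3 and 61.5 FPKM with TABS, 1.84-fold higher (log2 change 0.84 ± 0.16, limma adjusted p = 0.0139). Jund, the most abundant JUN gene, rose from 51.7, 58.9, 48.9 and 49.8 FPKM to 84.4, 70.7, 67.4 and 66.7 FPKM, 1.38-fold higher (0.46 ± 0.08, adjusted p = 0.0133). Neither gene overlapped between groups, and TABS replicate 5 was the highest library for both. The others that rose were Maff, a small MAF protein (0.34 ± 0.09, adjusted p = 0.0360), and Batf, a leucine-zipper partner of JUN (0.28 ± 0.07, adjusted p = 0.0343). Atf3 and Jund passed with each library left out (adjusted p up to 0.0485 and 0.0467), but Maff and Batf lost their calls when replicate 5 or 6 of TABS was left out, or 5, 7 or 8 of HA/Mg, and Batf also without TABS replicate 7 (adjusted p up to 0.102 and 0.0970). After the length and GC trends were removed, Atf3 alone of the 4 passed (adjusted p = 0.0327), with Jund at 0.0635. The log2 changes were then 0.81 for Atf3, 0.37 for Jund, 0.24 for Maff and 0.16 for Batf. The median GC content of the 12 genes was 55.9%, against 49.8% over all tested genes, and its part in the calls was tested only by that removal.

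Ier2 (ENSMUSG00000053560, chromosome 8, 84661331 to 84662852, minus strand) lay at 4.78, 4.66, 4.77 and 5.45 FPKM with TABS and at 7.01, 5.88, 5.89 and 8.44 FPKM with HA/Mg. All TABS libraries were below all HA/Mg libraries, and HA/Mg replicates 5 and 8 were the highest. The mean was 4.91 ± 0.358 FPKM with TABS and 6.81 ± 1.21 FPKM with HA/Mg, 1.39-fold lower (log2 change -0.39 ± 0.10). Ier2 reached 1 FPKM in every library. Its log2 change stayed between -0.45 and -0.29 with each library left out, and it no longer passed when any of 6 libraries was left out, which were replicates 5 (-0.38), 6 (-0.37) and 7 (-0.38) of TABS and replicates 5 (-0.37), 7 (-0.45) and 8 (-0.29) of HA/Mg. It was at -0.50 and passed after the length and GC trends were removed.

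Ier3 (ENSMUSG00000003541, chromosome 17, 35821684 to 35822923, plus strand) was the most abundant of the 10 members, at 54.5, 66.6, 35.4 and 42.3 FPKM with TABS and 41.4, 28.8, 47.8 and 52.4 FPKM with HA/Mg. The groups overlapped, and the log2 change of 0.21 ± 0.22 (95% interval -0.28 to 0.70) was within the spread of the libraries. It was 0.04 without HA/Mg replicate 6 and 0.36 without TABS replicate 7, passing in neither case. Egr1 (ENSMUSG00000038418) lay at 0.638, 1.15, 0.591 and 0.699 FPKM with TABS and 0.994, 0.973, 0.728 and 0.933 FPKM with HA/Mg. Only TABS replicate 6 exceeded 1 FPKM, and the groups overlapped. The other EGR genes were lower still, with medians of 0.0462 FPKM for Egr3 and 0.0141 FPKM for Egr2 and Egr4 listed at 0. Of the EGR co-repressors, Nab1 decreased by 0.24 ± 0.07 in log2 units (14.9 ± 1.30 against 17.8 ± 0.944 FPKM, limma adjusted p = 0.0385). That call ended after the length and GC trends were removed (adjusted p = 0.107) and when replicate 5, 7 or 8 of either group was left out (adjusted p up to 0.102). Nab2 did not pass (9.61 ± 1.43 against 8.46 ± 0.539 FPKM).

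Of 26 other immediate early genes tested, 7 rose (26.9%, beside 5.07% of all tested genes), 0 fell and 19 did not pass. Of the 26 genes, 11 were higher and 2 lower at an unadjusted p under 0.05 in limma. Their median log2 change was 0.17 against -0.04 over all tested genes. The largest change was that of Csrnp1, a nuclear protein induced by axin, which stood at 11.5, 17.2, 7.03 and 11.7 FPKM with TABS and 4.90, 8.43, 5.24 and 4.83 FPKM with HA/Mg (0.88 ± 0.24, adjusted p = 0.0359). Plk2, a kinase of the stress response, stood at 59.9, 50.3, 31.8 and 29.3 FPKM with TABS and 25.4, 25.7, 24.9 and 22.1 FPKM with HA/Mg (0.72 ± 0.20, adjusted p = 0.0399). Nr4a1, an orphan nuclear receptor, stood at 5.36, 4.88, 2.59 and 2.90 FPKM with TABS and 1.92, 1.84, 2.31 and 2.30 FPKM with HA/Mg (0.63 ± 0.18, adjusted p = 0.0410). In Plk2 and Nr4a1, as in Jun, TABS replicates 5 and 6 lay above replicates 7 and 8. Gadd45b, a DNA damage and stress gene, stood at 41.7, 34.0, 35.6 and 30.8 FPKM with TABS and 23.2, 31.2, 21.8 and 19.7 FPKM with HA/Mg (0.56 ± 0.13, adjusted p = 0.0247). In Csrnp1 and Gadd45b the highest HA/Mg library, replicate 6, lay above the lowest TABS library.

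These 4 calls were fragile. Each ended when TABS replicate 5 or HA/Mg replicate 5, 7 or 8 was left out, and some without TABS replicates 6 to 8 or HA/Mg replicate 6 (adjusted p up to 0.105), and each ended after the length and GC trends were removed (adjusted p of 0.0530 to 0.0840). The log2 changes were then 0.81 for Csrnp1, 0.79 for Plk2, 0.55 for Nr4a1 and 0.46 for Gadd45b. After that removal 1 of the 26 genes passed, Id2, an inhibitor of helix-loop-helix factors that was not among the 7 (1.43 against 0.948 FPKM). This stands beside 263 higher genes of the 10157 in that fit. The median log2 change of the 26 genes was then 0.18, close to the value before it. The median GC content of the 26 genes was 53.4%. Ccn1 and Ccn2, secreted matrix proteins on this list, were near 0 in all libraries, and Zfp36, whose protein destabilizes AU-rich mRNAs, stood at 20.1 ± 4.75 against 14.6 ± 1.15 FPKM without passing (adjusted p = 0.0717).

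**Figure D3:**
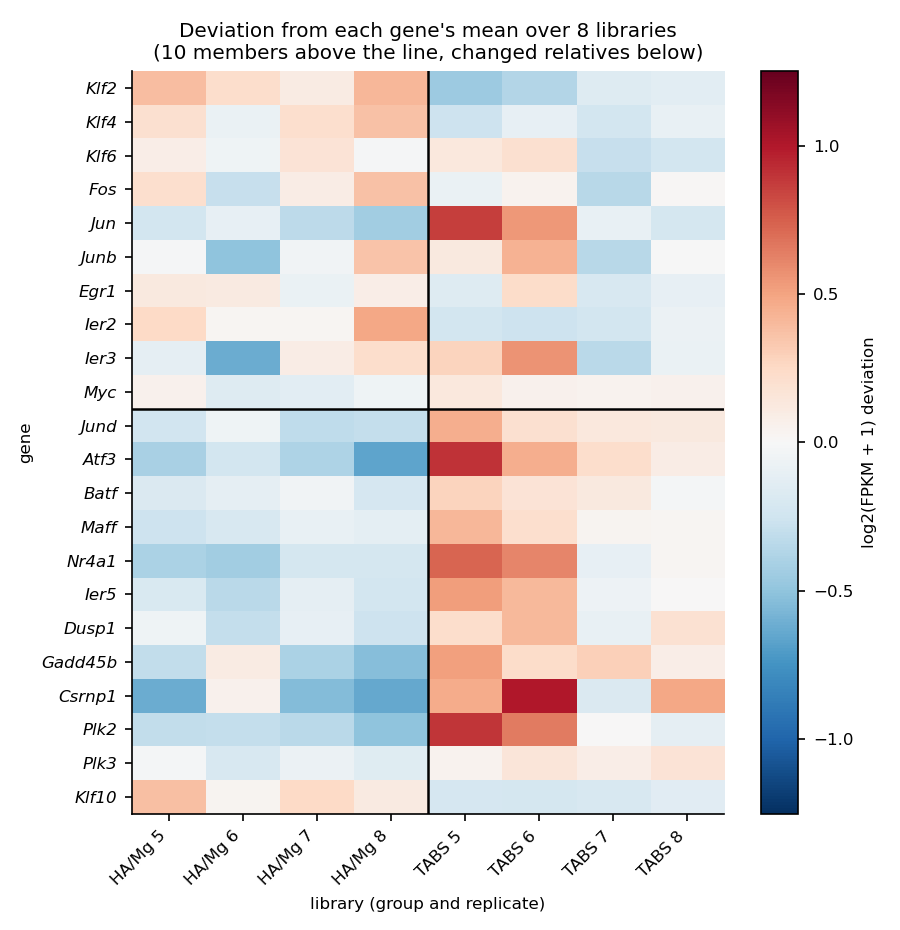
Deviation of log2(FPKM + 1) from the mean of each gene over the 8 libraries, for the 10 members above the line and, below it, the AP-1, immediate early and KLF genes that passed the threshold and so differ by choice; columns are libraries. Klf2, Klf4 and Ier2 are negative in all TABS libraries, and Jun is at 0.86 and 0.55 in TABS replicates 5 and 6.

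The members followed several patterns rather than a single one. Junb and Ier3 were the most alike, with log2 deviations from their own means that differed on average by 0.106 over the 8 libraries, followed by Klf2 and Ier2 at 0.118. Klf2 and Jun were the least alike, at 0.576. Fos, Junb and Ier3 shared the highest and the lowest library of each group, though not the order between them: replicate 6 was the lowest and replicate 8 the highest of the HA/Mg libraries, and replicate 7 was the lowest and replicate 6 the highest of the TABS libraries. In Klf2 the order of the TABS libraries was the reverse of that in Jun, with replicate 5 the lowest for Klf2 and the highest for Jun.

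Outside the members, the gene most like Jun was Plk2, with a mean absolute difference of 0.0848 in log2 deviation over 8 libraries, followed by Cd83, an activation marker of antigen-presenting cells, at 0.132. For comparison, Jun itself deviated from its mean by 0.352 on average, Klf6 by 0.147, Fos by 0.179, Ier2 by 0.195, Junb by 0.228, Klf2 by 0.28 and Ier3 by 0.288. The nearest genes were picked from 6380 candidates, and small differences can arise from that search alone. Irak3, an inhibitor of toll-like receptor signalling, lay nearest to Klf6 at 0.0424, followed by Evi2a at 0.0481. Sesn2, a stress-induced regulator of metabolism, lay nearest to Fos at 0.0362, followed by Themis2 at 0.0427. Arhgap11a lay nearest to Ier2 at 0.0397, and Ibtk followed at 0.0644. The protein-coding gene 4921524J17Rik lay nearest to Klf2 at 0.0619, ahead of the pseudogene Gm9800 at 0.0707. The pseudogene Gm15433 lay nearest to both Junb (0.0856) and Ier3 (0.0895), followed by Fem1a for Junb (0.110) and Ptgir for Ier3 (0.106).

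**Figure D4:**
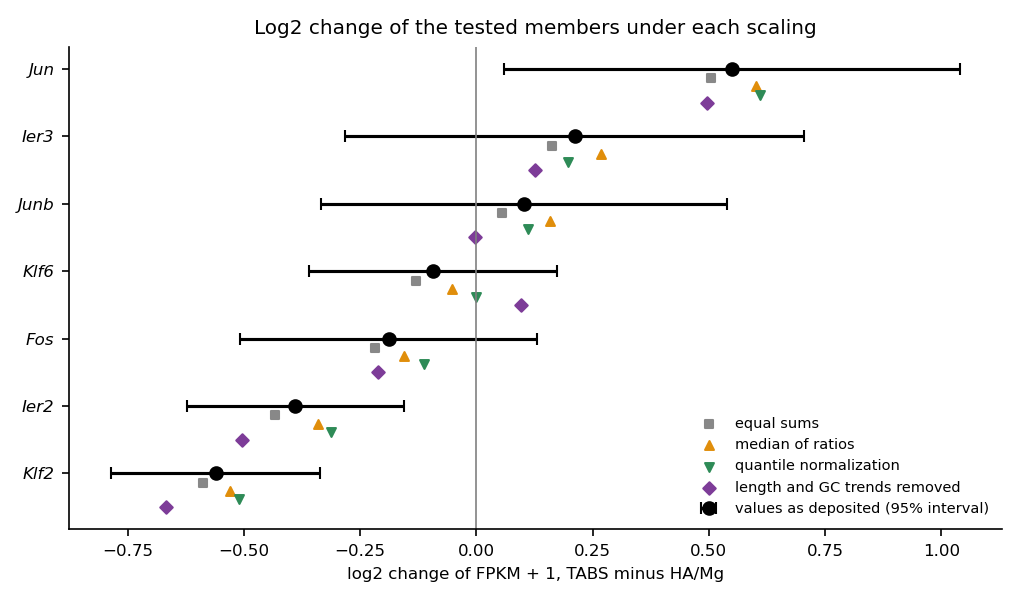
Log2 change of FPKM + 1 (TABS minus HA/Mg) for the 7 tested members, with the 95% interval from limma for the values as deposited in black and the values under 4 other scalings in colour. Klf2, Ier2, Fos, Jun and Ier3 keep their side of 0 under these scalings, while Klf6 and Junb cross it when the length and GC trends are removed.

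Myc (ENSMUSG00000022346, chromosome 15, 61985391 to 61990374, plus strand) was the lowest member, at 0.394, 0.325, 0.308 and 0.325 FPKM with TABS and 0.324, 0.141, 0.159 and 0.225 FPKM with HA/Mg. HA/Mg replicate 5 lay within the TABS range and the other HA/Mg libraries below it. The implied fragments were 8 to 20 per library, a counting error of 35.4% to 22.4%. The mean was 0.338 ± 0.0384 FPKM with TABS and 0.212 ± 0.0828 FPKM with HA/Mg, 1.59-fold higher with TABS, and Myc was below the filter of the test. The related gene Mycn, which encodes N-MYC, was abundant in every library, with a lowest value of 152 FPKM and a highest of 271 FPKM. Its values were 241, 152, 270 and 271 FPKM with TABS and 264, 164, 158 and 168 FPKM with HA/Mg. They lay either at 152 to 168 or at 241 to 271 FPKM, with libraries of both groups at each level, and Mycn did not pass (log2 change 0.30 ± 0.21, adjusted p = 0.326). Mycl had a median of 0.0220 FPKM.

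Of 10 MYC partners tested, including Mycn, Max and the MXD repressors, limma called 0 in either direction, 2 were higher and 1 lower at an unadjusted p under 0.05, and the median log2 change was 0.04. The smallest p-values were those of Zbtb17, the MYC-binding repressor MIZ-1 (12.9 ± 0.776 against 11.3 ± 0.615 FPKM, adjusted p = 0.0598), and Mxd1, an antagonist of MYC (3.84 ± 0.801 against 2.90 ± 0.345 FPKM, adjusted p = 0.10). Zbtb17 shares exons with Spen on the opposite strand.

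Of 38 genes of ribosome biogenesis and growth known as MYC targets, all were tested, 12 fell (31.6%, beside 13.1% of all tested genes), 0 rose and 26 did not pass. In limma 16 were lower and 3 higher at an unadjusted p under 0.05. The median log2 change was -0.11 against -0.04 over all tested genes. After the length and GC trends were removed 6 fell, beside 384 of all 10157 genes in that fit, and the median of the list was -0.06. Gnl3, the nucleolar protein nucleostemin, fell from 12.2, 9.69, 12.9 and 12.7 FPKM with HA/Mg to 6.91, 7.99, 7.28 and 8.91 FPKM with TABS (log2 change -0.55 ± 0.10, adjusted p = 0.0126). Dkc1, the pseudouridine synthase dyskerin (-0.47 ± 0.11, adjusted p = 0.0207), Wdr43, a ribosome assembly factor (-0.46 ± 0.08, adjusted p = 0.0125), and nucleolin, Ncl (95.6 ± 4.90 to 69.4 ± 2.98 FPKM, -0.46 ± 0.05, adjusted p = 0.00834), fell as well. Gnl3, Wdr43 and Ncl passed with each library left out (adjusted p up to 0.0452) and after that removal (0.0273 to 0.0320), whereas Dkc1 did not pass after it (0.0583) or when replicate 5 or 7 of TABS was left out, or 5, 7 or 8 of HA/Mg (up to 0.0680). Gnl3 and Dkc1 share exons with Pbrm1 and Mpp1 on the opposite strand.

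**Figure D5:**
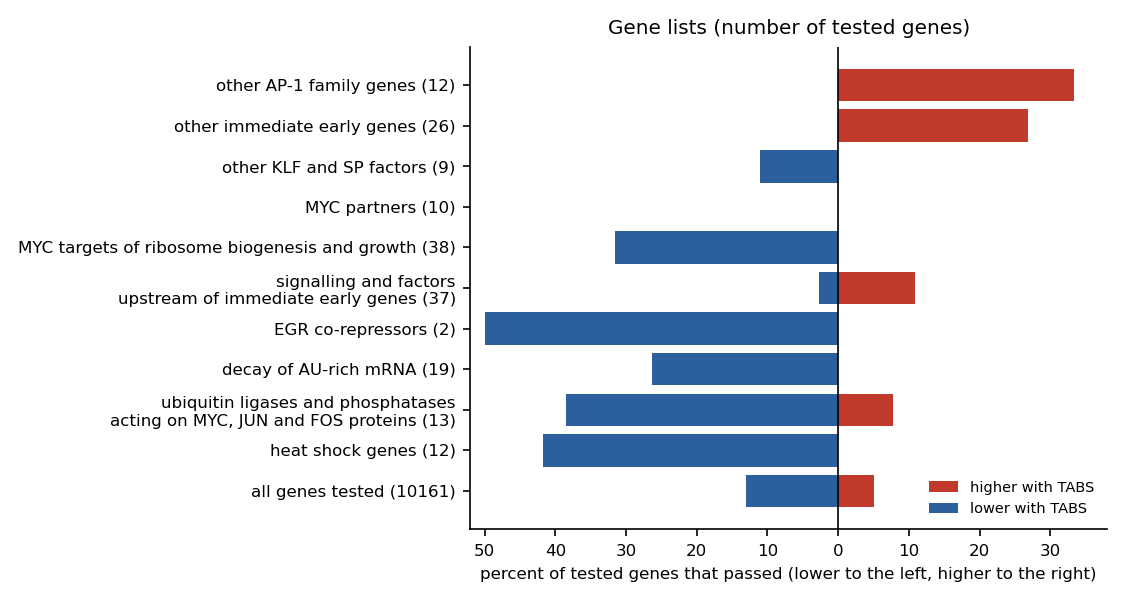
Percent of the tested genes of each list that passed the threshold, lower with TABS to the left and higher to the right, with all tested genes in the bottom row and the number of tested genes in parentheses. AP-1 and other immediate early genes have bars only to the right, KLF and SP factors, MYC targets, EGR co-repressors, AU-rich mRNA decay and heat shock genes only to the left, and MYC partners have none.

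Among 37 tested kinases and factors upstream of immediate early genes, 4 rose (10.8%, beside 5.07% of all tested genes), 1 fell (2.70%, beside 13.1%) and 32 did not pass, with a median log2 change of -0.03. At an unadjusted p under 0.05 in limma the balance was the other way, with 5 higher and 7 lower. The log2 change was positive for 14 and negative for 23. After the length and GC trends were removed, 1 gene of the list passed as higher and 0 as lower. Mapk3, the kinase ERK1, rose from 97.4 ± 8.43 to 118 ± 4.52 FPKM (0.28 ± 0.06, limma adjusted p = 0.0197), and Mapkapk2, a kinase below p38, from 265 ± 13.8 to 306 ± 8.85 FPKM (0.21 ± 0.05, adjusted p = 0.0217). Elk1, an ETS factor activated by ERK that shares exons with Uxt, rose by 0.18 ± 0.05 (adjusted p = 0.0432), and Mapk9, the kinase JNK2, decreased by 0.27 ± 0.05 (adjusted p = 0.0139). Each of these calls ended after the length and GC trends were removed (adjusted p of 0.0970 to 0.270), at log2 changes of 0.18 for Mapk3, 0.13 for Mapkapk2, 0.19 for Elk1 and -0.12 for Mapk9. Each also ended without HA/Mg replicate 5 or 7, and those of Mapk3, Mapkapk2 and Elk1 without HA/Mg replicate 8 (adjusted p up to 0.124). Mapkapk2 and Elk1 lost theirs without TABS replicate 5 or 7 as well, and Elk1 without TABS replicate 6 or 8. Of the MEF2 genes on this list, Mef2d led at 27.6 ± 1.18 FPKM with TABS and 27.8 ± 0.960 FPKM with HA/Mg (log2 change -0.01 ± 0.05, 95% interval -0.12 to 0.09), and Mef2a (2.21 against 2.33 FPKM) and Mef2c (1.96 against 2.21 FPKM) did not pass.

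Decay of AU-rich mRNA is the route by which many immediate early transcripts are removed. Of 19 genes of this route tested, 11 were lower and 2 higher at an unadjusted p under 0.05 in limma, with a median log2 change of -0.16. At the threshold 5 fell (26.3%, beside 13.1% of all tested genes), 0 rose and 14 did not pass. They were 4 subunits of the CCR4-NOT deadenylase, of which Cnot6l fell by 0.45 ± 0.11 (2.74 ± 0.301 against 4.14 ± 0.740 FPKM, adjusted p = 0.0273) and Cnot2 by 0.43 ± 0.09 (7.98 ± 0.691 against 11.1 ± 1.26 FPKM, adjusted p = 0.0149), and Hnrnpd, the AU-rich element binding protein AUF1 (-0.37 ± 0.09, adjusted p = 0.0247). Cnot6 fell by 0.37 ± 0.09 (adjusted p = 0.0261) and Cnot1 was the remaining one. Only Cnot2 still passed after the length and GC trends were removed (adjusted p = 0.0471) and with each library left out (up to 0.0492). After that removal the log2 changes were -0.28 for Cnot2, -0.20 for Cnot6l, -0.15 for Hnrnpd and -0.14 for Cnot6. HA/Mg replicates 5 and 7 each ended the calls of the other 4 when left out, TABS replicates 5 and 7 those of Cnot6l, Hnrnpd and Cnot6, HA/Mg replicate 8 those of Cnot6l, Cnot6 and Cnot1, TABS replicate 6 those of Cnot6l and Hnrnpd, and TABS replicate 8 that of Cnot6 (adjusted p up to 0.0839). The median GC content of this list was 45.7%, against 49.8% over all tested genes.

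Of 13 tested genes acting on the stability of MYC, JUN and FOS proteins, 5 fell (38.5%, beside 13.1% of all tested genes), 1 rose (7.69%, beside 5.07%) and 7 did not pass, with a median log2 change of -0.20. At an unadjusted p under 0.05 in limma 8 were lower and 2 higher. After the length and GC trends were removed 0 genes of this list passed in either direction, and its median log2 change was -0.08. Cip2a, an inhibitor of the phosphatase that destabilizes MYC, fell from 4.87 ± 0.976 to 2.83 ± 0.438 FPKM (-0.61 ± 0.13, limma adjusted p = 0.0189). The ubiquitin ligase Itch, which acts on JUN proteins, fell by 0.37 ± 0.08 (adjusted p = 0.0210), Skp2, a ligase component acting on MYC, by 0.35 ± 0.08 (adjusted p = 0.0222), and Huwe1 by 0.26 ± 0.07 (adjusted p = 0.0414). After the length and GC trends were removed these 4 no longer passed (adjusted p of 0.0570 to 0.0986), at log2 changes of -0.40 for Cip2a, -0.16 for Itch, -0.16 for Skp2 and -0.11 for Huwe1. Each of the 4 calls ended without HA/Mg replicate 5, 7 or 8, those of Itch, Skp2 and Huwe1 also without TABS replicate 7, that of Itch without TABS replicate 5 and that of Huwe1 without TABS replicate 6 or 8 (up to 0.113). Of 12 heat shock genes, 5 fell (41.7%, beside 13.1% of all tested genes), 0 rose and 7 did not pass. In limma 6 were lower and 0 higher at an unadjusted p under 0.05, and the median log2 change was -0.19. Hspd1, which fell, and Hspe1 were also counted among the MYC targets. Dnaja1, Hspa4, Hspd1 and Hsph1 had the largest changes, from -0.43 ± 0.11 to -0.34 ± 0.07 (adjusted p of 0.00851 to 0.0269). Dnaja1 and Hspd1 share exons with Smu1 and Hspe1 on the opposite strand. After the length and GC trends were removed 3 fell, Hspa4, Hspd1 and Hsph1, beside 384 of all 10157 genes in that fit. Dnaja1 and Hsph1 lost their calls without HA/Mg replicate 5, 7 or 8, and Dnaja1 also without TABS replicate 5 or 7 (adjusted p up to 0.0835).

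The 10 members share features of gene structure that the choice did not use. Their longest transcripts had a median of 2.5 exons and at most 5, against a median of 7 over the tested genes, and Jun, Junb and Ier2 had 1 exon, as did 12.7% of tested genes. Their transcripts were 1131 (Ier3) to 4484 (Egr1) bases long with a median of 2223, against 3039. In GC content 9 of the 10 lay above the tested genes' median of 49.8%, from 51.9% in Fos to 62.6% in Junb, and Klf6 lay below it at 42.4%. The pentamer ATTTA, the core of AU-rich elements that speed mRNA decay, occurred in the 3′ UTR of 9 members, all but Ier2, and of 69.0% of tested coding genes. Klf6 had the most copies, 7, or 2.25 per kilobase. Ier3 had 5 copies, 8.16 per kilobase, Fos had 4, or 4.91 per kilobase, and Myc, Junb and Jun had 4.29, 4.12 and 3.24 per kilobase, against a median of 1.30 over the tested coding genes. Klf2 and Klf4 had 1 copy each, 1.36 and 1.02 per kilobase, and with Ier2 these were the 3 members with the fewest copies per kilobase. All 3 were also lower in all TABS libraries, as were 15% of all tested genes, and Klf4 was not among those tested. This is a description of 10 genes, made after their values were seen. A link between copies and levels was not tested.

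Of 10 macrophage markers 9 averaged 1 FPKM or more, among them Cd68, Csf1r, Adgre1 and Lyz2, while Mertk was near 0. Their summed level was 2490 to 2790 FPKM with TABS and 2060 to 2460 FPKM with HA/Mg, without overlap, and its part in the members' differences was not tested. Lyz2 held the largest part of that sum (mean 1420 against 1250 FPKM). Itgam (62.7 against 65.3 FPKM) and Ptprc (6.11 against 6.72 FPKM) were on average lower with TABS, and the other markers averaging 1 FPKM or more were higher. Of the osteoclast markers Mmp9 and Dcstamp exceeded 1 FPKM and Calcr was at 0 (summed level 131 to 162 against 87.3 to 123 FPKM). Mmp9 made up most of that sum (mean 144 FPKM with TABS against 98.1 FPKM with HA/Mg). Acp5 (0.458 against 0.526 FPKM) and Ctsk (0.322 against 0.357 FPKM) were low and on average lower with TABS. Cd79b, a B cell receptor component, averaged 3.94 FPKM with TABS and 2.76 FPKM with HA/Mg, and its part in the members' differences was not tested. Summed markers of osteoblasts, fibroblasts, endothelium, epithelium, T cells and neutrophils stayed at or under 0.439 FPKM in every library, with Alpl, Bglap, Ibsp, Epcam, Krt18, Cdh1, Cd3e, Cd4, Cd8a and S100a9 at 0.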

How the data were processed

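RNA of 8 libraries of RAW264.7 cells was sequenced. Per the labels' protocols it was extracted with TRIzol, and the NEBNext Ultra RNA kit served for library construction, with paired-end reads from a NovaSeq. The authors deposited FPKM values, and GRCm38, STAR, fastp and DESeq2 are named per the submitters' processing notes. Not given in the sources used here are tool versions, the gene annotation and how FPKM values were computed. FPKM divides by transcript length and by a library total, so a rise in abundant transcripts lowers all others.

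Groups came from sample titles and columns from library names. Symbols, positions, transcript length, GC content and 3′ UTRs came from GENCODE M21 (55154 identifiers matched). The test was limma (version 3.58.1, R 4.3.3) for genes reaching 1 FPKM in 4 or more of the 8 libraries, on log2(FPKM + 1) with a mean-variance trend, two-sided, with Benjamini-Hochberg adjustment over all tested genes. The procedure was tested on simulated data with noise drawn independently for each gene and library. Shifts shared by many genes of a library were not simulated, so that test does not give the error rate for these data. Members and lists were chosen with earlier results of these data known. Named genes are the 10 members, in each of 10 lists up to 4 passing genes of largest change (where none passed, the 2 of smallest p), and for each tested member the 2 most alike genes averaging 5 FPKM or more. Genes named outside this rule (Cnot1, Zfp36, Ccn1, Ccn2, Mycn, Mycl, Nab2 and Mef2 genes, Id2, other KLF, FOS and EGR genes given by level) were picked with their values in view. Settings varied were pseudocounts (0.1 and 0.5), filters (none, 5 FPKM), 3 other scalings, moderation without a trend or robust, a replicate block, array weights, removal of length and GC trends (natural splines, 4 degrees of freedom), coding genes only, and each library left out with the gene filter kept. The summed level of the B cell markers is not reported here.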

Additional observations from a re-analysis of the deposited data

Results flagged for a closer look

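Ier2 in TABS replicate 8 stood at 5.45 FPKM, apart from the other 3 TABS libraries at 4.66 to 4.78 FPKM, by a gap that exceeded Dixon's 95% critical value for 4 samples. Of 20 groups of 4 libraries examined (10 genes in 2 groups) it was the 1 that did so, and chance gives about 1 in 20. The value lies toward the HA/Mg libraries and below all of them, and without that library the log2 change was -0.43, which passed.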

How the results depend on the processing

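The log2 changes of Klf2 and Ier2 stayed negative under every alternative that could be fitted (Klf2 was below the filter of 5 FPKM). Of 10161 genes 1842 passed, and this became 3532 with array weights, 808 with no filter on low values, 647 with length and GC trends removed and 429 to 3320 with 1 library left out (429, 3320, 475 and 694 without HA/Mg replicates 5 to 8, and 858, 1143, 943 and 1227 without TABS replicates 5 to 8). Of the listed genes outside the members 45 passed, and this became 79, 18, 13 and 13 to 68 under the same settings. Of these 45, 12 passed with each library left out, 11 with length and GC trends removed, and 8 in all of these fits. The number of passing members was 2, and it was 1 with no filter (Klf2) or a filter of 5 FPKM (Ier2) and 1 to 2 with 1 library left out. Ier2 did not pass with no filter (log2 change -0.39), and was at -0.45 to -0.29 with 1 library left out. Jun passed with array weights (0.60). The log2 change of Junb turned to -0.0027 and that of Klf6 to 0.10 with length and GC trends removed, and Junb was at -0.05 to 0.24 with 1 library left out (-0.047 without HA/Mg replicate 6 and -0.025 without TABS replicate 6). The cause of these changes was not tested.

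Under a replicate block, limma called 0 genes (2987 at an unadjusted p under 0.05, smallest adjusted p 0.0589), 0 listed genes and 0 members, with Klf2 at -0.56 and Ier2 at -0.39. The block together with removal of the length and GC trends also called 0 genes (2223 at an unadjusted p under 0.05), 0 listed genes and 0 members, with Klf2 at -0.67, Ier2 at -0.50, Junb at -0.0027 and Klf6 at 0.10. The deviations of same-numbered libraries from their group means correlated at 0.01, -0.27, -0.16 and 0.13 for replicates 5 to 8. Those of differently numbered libraries correlated at -0.25 to 0.38. With 4 libraries in a group these values cannot settle whether libraries of the same number were handled together. Depth limits Myc, Klf2, Fos and Klf4 most, at 8 to 115 implied fragments per library.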
